A study of Mus musculus with 2 samples.

Results

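The carnitine shuttle genes described here are Cpt1a, Cpt1b, Cpt2, Slc25a20, Crat and Slc22a5. They were chosen by name for their role, with earlier results of these data known. All 6 had reads, among 15622 genes with at least 1 read in the series. Reads were taken for each of their transcripts in the GENCODE mouse M21 annotation and summed to genes. Of 37 annotated transcripts of the 6 genes, 18 had at least 1 read.

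By its tissue field, the material was interscapular brown adipose tissue of male wild type C57BL/6N mice aged 20 weeks. The extraction text names another depot, a white fat (eWAT), so the tissue rests on that field. The cold library was made from pooled RNA of 3 animals housed alone for 24 h at 4 °C, and the control library carries the treatment label ctrl. Housing of the colony was at 22 to 24 °C. The sources used here do not state the number of control animals or their caging, and the treatment text of the control sample repeats the cold protocol, so the group rests on the treatment label. Native polyadenylated RNA was read by Oxford Nanopore direct RNA sequencing, in which each read starts at the poly(A) tail of a single molecule. With 1 library per group no spread between animals was measured, so the conditions could not be tested and the text holds no p-values. The libraries held 1215617 reads (cold) and 1698124 reads (control). Bracketed ranges are 95% intervals for counting error, and they compare these libraries only.

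Long-chain fatty acids are activated to acyl-CoA in the cytosol, and acyl-CoA does not cross the inner mitochondrial membrane. Carnitine palmitoyltransferase 1 on the outer membrane moves the acyl chain to carnitine, the translocase encoded by Slc25a20 brings the acylcarnitine inside in exchange for free carnitine, and carnitine palmitoyltransferase 2 (Cpt2) rebuilds acyl-CoA in the matrix. Malonyl-CoA, the first committed product of fatty acid synthesis, inhibits the outer membrane enzyme. Crat, carnitine acetyltransferase, swaps short acyl groups between CoA and carnitine, and Slc22a5 (OCTN2) imports carnitine with sodium across the plasma membrane. Brown fat burns much of its fatty acid supply in mitochondria to make heat.

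The outer membrane step is encoded by Cpt1a, the form named after liver, and Cpt1b, the form named after muscle, which is also the usual form of brown adipocytes. Their first 150 coding bases are shown because Cpt1a had the highest ratio of the 6 genes and its reads are set against those of Cpt1b, with bases that differ between the genes in capitals (39 of 150). The Cpt1a stretch lies within chr19:3349202-3352493 on the plus strand and the Cpt1b stretch within chr15:89424848-89425328 on the minus strand of GRCm38, introns left out.
Cpt1a-201: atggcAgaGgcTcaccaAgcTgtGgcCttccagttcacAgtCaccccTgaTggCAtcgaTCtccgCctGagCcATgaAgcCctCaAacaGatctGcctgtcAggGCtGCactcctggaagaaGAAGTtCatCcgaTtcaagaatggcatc
Cpt1b-201: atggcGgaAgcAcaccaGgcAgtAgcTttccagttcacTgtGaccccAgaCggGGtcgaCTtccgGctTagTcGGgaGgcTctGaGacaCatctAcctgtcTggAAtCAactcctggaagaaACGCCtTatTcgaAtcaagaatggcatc
Over 2310 aligned coding bases the genes were 66.2% identical, and their main transcripts shared none of their 31-base words.

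Promoter windows of 300 bases, which take in the start of transcription near their 3′ end, were in the RefSeq table for 4 of the 6 genes (build GRCm38.p6), and there was no entry for Cpt1b and Crat. All 4 available windows are shown. They belong to the members with the highest ratios, Cpt1a and Slc22a5, and to those with the lowest, Slc25a20 and Cpt2, but were not selected by ratio. Capitals mark GGGCGG on either strand. The windows are chr19:3323051-3323350 (plus strand) for Cpt1a, chr11:53891654-53891953 (minus) for Slc22a5, chr9:108661886-108662185 (plus) for Slc25a20 and chr4:107923540-107923839 (minus) for Cpt2.
Cpt1a: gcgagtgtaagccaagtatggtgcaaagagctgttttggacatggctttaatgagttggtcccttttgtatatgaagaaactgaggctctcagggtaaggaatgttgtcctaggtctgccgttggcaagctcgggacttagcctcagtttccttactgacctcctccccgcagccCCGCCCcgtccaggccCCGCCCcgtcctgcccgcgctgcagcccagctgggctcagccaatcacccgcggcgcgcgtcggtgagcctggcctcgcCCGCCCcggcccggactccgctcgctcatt
Slc22a5: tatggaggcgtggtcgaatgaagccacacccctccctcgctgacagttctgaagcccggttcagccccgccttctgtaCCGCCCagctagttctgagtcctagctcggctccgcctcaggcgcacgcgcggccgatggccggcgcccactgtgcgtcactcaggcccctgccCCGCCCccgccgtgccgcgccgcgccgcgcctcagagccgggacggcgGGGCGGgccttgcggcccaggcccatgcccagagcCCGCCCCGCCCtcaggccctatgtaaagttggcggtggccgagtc
Slc25a20: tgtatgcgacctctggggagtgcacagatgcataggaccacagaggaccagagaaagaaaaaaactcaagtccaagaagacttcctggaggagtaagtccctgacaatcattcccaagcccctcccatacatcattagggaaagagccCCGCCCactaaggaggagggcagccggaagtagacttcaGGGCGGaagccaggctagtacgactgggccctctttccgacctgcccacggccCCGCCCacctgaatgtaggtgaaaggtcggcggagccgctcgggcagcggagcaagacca
Cpt2: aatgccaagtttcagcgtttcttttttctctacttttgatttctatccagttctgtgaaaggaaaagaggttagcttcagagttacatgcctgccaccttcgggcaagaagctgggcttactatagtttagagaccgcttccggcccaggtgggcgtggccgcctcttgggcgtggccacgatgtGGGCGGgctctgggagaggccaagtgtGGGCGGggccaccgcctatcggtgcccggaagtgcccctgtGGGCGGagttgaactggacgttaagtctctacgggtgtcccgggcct
The GGGCGG box, which Sp1-type factors bind, was found in all of these windows, with 5 matches for Slc22a5 and 3 each for Cpt1a, Slc25a20 and Cpt2. It was present in 35.7% of 32851 windows of the same length. The 4 windows were richer in G and C, at 57.3% to 72.7% of bases, than the median of all windows, 52.7%. The direct repeat of AGGTCA with 1 base between its copies, to which PPAR and RXR dimers bind, the extended half-site TNAAGGTCA of estrogen-related receptors and the cAMP response element TGACGTCA were in none of the 4 windows, and in 0.0396%, 1.28% and 1.79% of all windows. The half-site AGGTCA, which is also part of the first pair of motifs, occurred once, in Cpt1a, and in 16.3% of all windows. All motifs were searched on both strands, and a match or its absence describes only these letters in these windows.

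All 6 shuttle genes were higher in the cold library than in the control library, each with an interval above a ratio of 1. With DESeq2 size factors in place of the main scaling this held for 5, and the interval of Cpt2 covered 1. Of the 7529 genes whose summed reads reached 20, 11.3% had an interval above 1 with the main scaling, and another 11.3% an interval below 1. Intervals narrow as reads rise, so a gene with many reads can exclude 1 at a smaller ratio than a gene near 20 reads. Ratios above those of Cpt2, Slc25a20, Crat and Cpt1b were held by 36.4%, 34.1%, 17.9% and 12.9% of tested genes. The sizes were unequal. Cpt1a and Slc22a5, the least abundant members, were at least 2-fold higher with an interval above 1, as were 4.20% of all tested genes. No member was at least 2-fold lower, against 4.08% of tested genes. The median log2 ratio of the 6 genes, with 0.5 reads added to each count, was 0.55, with a range of 0.17 to 2.39, beside a median of -0.00 over all tested genes. Together they had 2809 reads in the cold library and 2618 in the control library, or 0.231% (0.223 to 0.240) of all reads in the cold and 0.154% (0.148 to 0.160) in the control library. After scaling to library size with edgeR's trimmed mean method (TMM), their sum was 1.32-fold higher (1.25 to 1.40), and it was 1.29-fold higher (1.21 to 1.37) without Crat, a subset taken with the values known.

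Slc22a5 (chromosome 11, 53864542 to 53891660), the carnitine importer, had 78 reads in the cold library against 39 in the control library, all on the single transcript Slc22a5-201. The scaled levels, in reads per 1000000 reads of the TMM-adjusted library size (RPM), were 60.3 RPM (47.7 to 75.2) in the cold library and 24.4 (17.4 to 33.4) in the control library, and the intervals did not overlap. The ratio was 2.47 (1.66 to 3.72), exceeded by 2.83% of tested genes. Its main transcript shares 2.34% of its 31-base words with the related transporter Slc22a4, which had 4 reads in the cold and 3 in the control library.

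Cpt1a (chromosome 19, 3322334 to 3385733) had 57 reads in the cold library against 13 in the control library. In scaled terms it stood at 44.1 RPM (33.4 to 57.1) in the cold library and 8.15 (4.34 to 13.9) in the control library, which do not overlap. The ratio was 5.41 (2.92 to 10.8), and 0.611% of tested genes had a higher one. Of the reads of Cpt1a, 56 in the cold library and all 13 in the control library were on Cpt1a-201, which alone was 5.31-fold higher (2.87 to 10.6). The remaining read in the cold library was on Cpt1a-202, annotated as a retained intron, and the other 6 annotated transcripts of the gene had no reads. Hepatocyte markers were near 0 in both libraries. Of 6, 5 (Alb, Apoa1, Ttr, Fgb and Serpina1a) were not listed, and Apoa2 had 3 reads in the cold and 1 in the control library. Marker lists of brown and white adipocytes, skeletal muscle, endothelium and macrophages took larger shares of reads in the cold library, as given below. These are shares of all reads, and with total counts the median log2 ratio of all tested genes was itself 0.17. The part of any of the listed cell types in the Cpt1a values was not tested.

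Cpt1b (chromosome 15, 89416405 to 89425863) had 562 reads in the cold library against 453 in the control library. The scaled levels were 434 RPM (399 to 472) in the cold library and 284 RPM (258 to 311) in the control library, a ratio of 1.53 (1.35 to 1.74). Cpt1b-201 took 98.6% of the gene's reads (97.2 to 99.4) in the cold library and 99.1% (97.8 to 99.8) in the control library. Skeletal muscle also makes Cpt1b and other genes of the shuttle. Of 24 muscle markers, 23 had at least 20 summed reads, and each of those 23 had an interval above 1. Acta1 and Atp2a1, the most abundant, had ratios of 4.68 (3.89 to 5.66) and 4.95 (3.80 to 6.51). The highest were Myh7 at 17.3 (5.52 to 87.1) and Tnnc1 at 12.3 (3.83 to 63.1), and the lowest Myl1 at 1.46 (1.17 to 1.82) and Pygm at 2.41 (1.39 to 4.29). The muscle markers summed to 0.225% of reads (0.217 to 0.234) in the cold library and 0.0489% (0.0456 to 0.0523) in the control library, and none was at 0 in either. The part of muscle in the difference of any shuttle gene was not tested. In bulk tissue, more RNA per cell and more cells of a type cannot be told apart.

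Cpt1a made up 9.21% of the reads of Cpt1a and Cpt1b (7.05 to 11.8) in the cold library and 2.79% (1.49 to 4.72) in the control library. This share does not depend on how libraries are scaled, and its difference was 6.42 percentage points (3.62 to 9.20). Cpt1b was the main form in both libraries. Together the pair was 1.64-fold higher (1.45 to 1.85), with 619 reads in the cold and 466 in the control library.

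**Figure D1:**
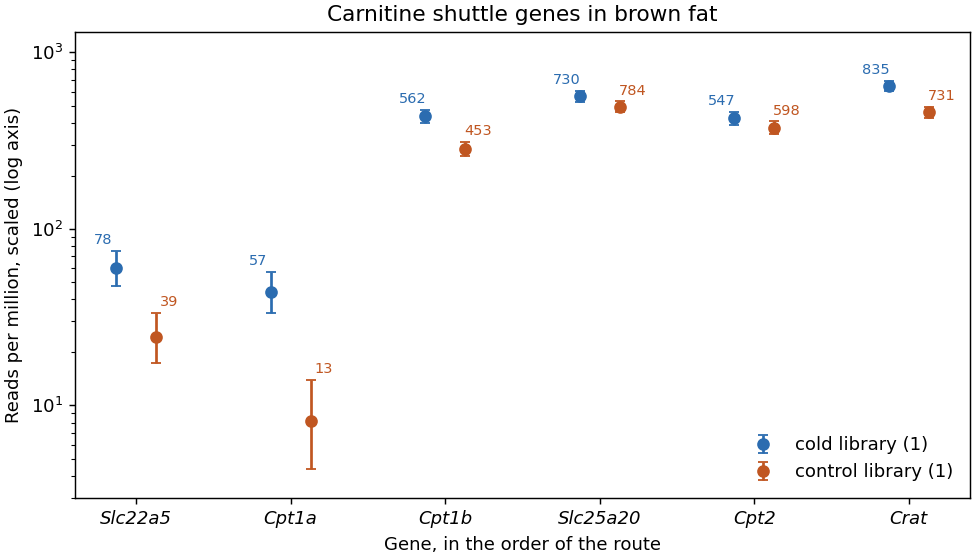
Scaled level in RPM (log axis) of the 6 genes in the cold library (blue) and the control library (orange), with read counts beside the points and exact 95% Poisson intervals as bars. Each group is 1 library. Cpt1a and Slc22a5 sit lowest in both libraries and show the widest gaps, with 57 reads in the cold against 13 in the control library for Cpt1a and 78 against 39 for Slc22a5.

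Much of the Cpt1b locus is also annotated under another name. Gm44502 (chromosome 15, 89416405 to 89429696) is a read-through of the upstream choline kinase gene Chkb into Cpt1b, annotated for nonsense-mediated decay. It had 189 reads in the cold library and 155 in the control library. Its transcript holds 17 of the 19 exons of Cpt1b-201 unchanged, and 93.7% of the 31-base words of Cpt1b-201 occur in it. Apart from the first exon, it lacks only exon 9 of Cpt1b-201, 85 coding bases at chr15:89422125-89422209. The stretch is shown with 20 bases of each neighbour, exon 9 in capitals, followed by the join in Gm44502 that leaves it out, with the downstream exon in capitals (minus strand).
Cpt1b-201 exon 9: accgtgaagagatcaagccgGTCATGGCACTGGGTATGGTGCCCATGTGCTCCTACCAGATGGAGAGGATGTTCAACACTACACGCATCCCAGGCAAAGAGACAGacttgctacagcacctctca
Gm44502-201 exon 17 to exon 18: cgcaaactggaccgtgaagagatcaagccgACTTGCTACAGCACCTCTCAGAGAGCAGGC
A read that stops before it reaches exon 9 of Cpt1b-201 holds only exons that both annotations share, and the deposited counts do not show where each read ended. Gm44502 alone was 1.5-fold higher (1.21 to 1.87). It took 25.2% of the joint reads of Cpt1b and Gm44502 (22.1 to 28.4) in the cold library and 25.5% (22.1 to 29.2) in the control library, a difference of -0.33 points (-5.0 to 4.29). With both summed, 751 reads in the cold and 608 in the control library gave a ratio of 1.52 (1.37 to 1.70). The share of Cpt1a over all 3 genes was then 7.05% (5.39 to 9.04) in the cold and 2.09% (1.12 to 3.55) in the control library. This sum was chosen after the values were seen.

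Slc25a20 (chromosome 9, 108662088 to 108684641), the translocase of the inner membrane, had 730 reads in the cold library against 784 in the control library. All were on Slc25a20-201. In scaled terms these were 564 RPM (524 to 607) in the cold library and 491 (458 to 527) in the control library, a ratio of 1.15 (1.04 to 1.27). The intervals of the levels overlap slightly, and 34.1% of tested genes had a higher ratio.

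Cpt2 (chromosome 4, 107903981 to 107923610), the matrix-side transferase, had 547 reads in the cold library against 598 in the control library. The scaled levels were 423 RPM (388 to 460) in the cold library and 375 RPM (345 to 406) in the control library, and these intervals overlap. The ratio was 1.13 (1.00 to 1.27). With DESeq2 size factors it was 1.11 (0.984 to 1.25), which no longer excludes 1. Cpt2 and Slc25a20, the matrix-side pair, had similar proportions, and Cpt2 took 42.8% of their joint reads (40.1 to 45.6) in the cold library and 43.3% (40.6 to 45.9) in the control library, a difference of -0.44 points (-4.19 to 3.33). Set against the outer membrane step, Cpt1a and Cpt1b together took 53.1% (50.2 to 56.0) of their joint reads with Cpt2 in the cold library and 43.8% (40.8 to 46.8) in the control library, a difference of 9.29 points (5.14 to 13.4). These pairings were chosen after the values were seen, and they leave out the reads of Gm44502.

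Cpt2 had a minor spliced form. Cpt2-203 leaves out exon 4 of Cpt2-201 (chr4:107906921-107908225), 1305 coding bases or 435 codons of the 1977 coding bases, so the reading frame continues. The joins of both forms are shown with the downstream exon in capitals (minus strand).
Cpt2-201 exon 3 to exon 4: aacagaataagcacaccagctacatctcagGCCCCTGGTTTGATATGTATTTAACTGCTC
Cpt2-203 exon 3 to exon 4: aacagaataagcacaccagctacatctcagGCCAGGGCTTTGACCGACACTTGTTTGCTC
Cpt2-203 had 18 of 547 reads in the cold library, 3.29% (1.96 to 5.15), and 27 of 598 in the control library, 4.52% (3.00 to 6.50). The difference, -1.22 points (-3.53 to 1.09), was not detectable at this depth. Cpt2-201 alone was 1.14-fold higher (1.01 to 1.28).

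Crat (chromosome 2, 30400471 to 30415813) had 835 reads in the cold library against 731 in the control library. Its scaled levels were 645 RPM (602 to 691) in the cold library and 458 (426 to 493) in the control library, which do not overlap. The ratio was 1.41 (1.27 to 1.56). Reads were spread over 7 transcripts, of which 3 took nearly all. Crat-201 and Crat-203 encode the same 1881 coding bases but end 630 bases apart. Crat-201, with the nearer end, had 374 reads in the cold and 304 in the control library, and Crat-203, with the farther end, had 346 in the cold and 293 in the control library. Both were higher in the cold library, at 1.52-fold (1.30 to 1.77) and 1.46-fold (1.24 to 1.71).

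Crat-209, annotated as a processed transcript without a coding sequence, did not have an interval above 1. It starts with a 37-base exon inside the intron before exon 9 of Crat-203 and then follows that transcript to within 5 bases of its end. Its first join is shown beside that of Crat-203, with the shared downstream exon in capitals (minus strand, within chr2:30406439-30406985).
Crat-209 exon 1 to exon 2: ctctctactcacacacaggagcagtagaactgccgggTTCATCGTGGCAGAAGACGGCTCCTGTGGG
Crat-203 exon 8 to exon 9: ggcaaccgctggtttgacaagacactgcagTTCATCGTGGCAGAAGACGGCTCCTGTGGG
Crat-209 had 109 reads in the cold library and 127 in the control library, a ratio of 1.06 (0.812 to 1.38). Its share of Crat reads was 13.1% (10.8 to 15.5) in the cold and 17.4% (14.7 to 20.3) in the control library, a difference of -4.32 points (-7.92 to -0.762). A Crat-203 molecule read only as far as exon 9 would match most of Crat-209, and read ends are not in the deposited counts, so how many reads these transcripts exchanged was not tested. Transcripts with the farther end, Crat-203 and Crat-209, took 54.9% (51.4 to 58.3) of reads of the 3 forms in the cold library and 58.0% (54.3 to 61.6) in the control library. That difference of -3.13 points (-8.04 to 1.82) was not detectable at this depth. On the opposite strand, Dolpp1, which overlaps the last bases of Crat, had 13 reads in the cold and 15 in the control library, and the antisense gene Gm16323 was not listed.

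**Figure D2:**
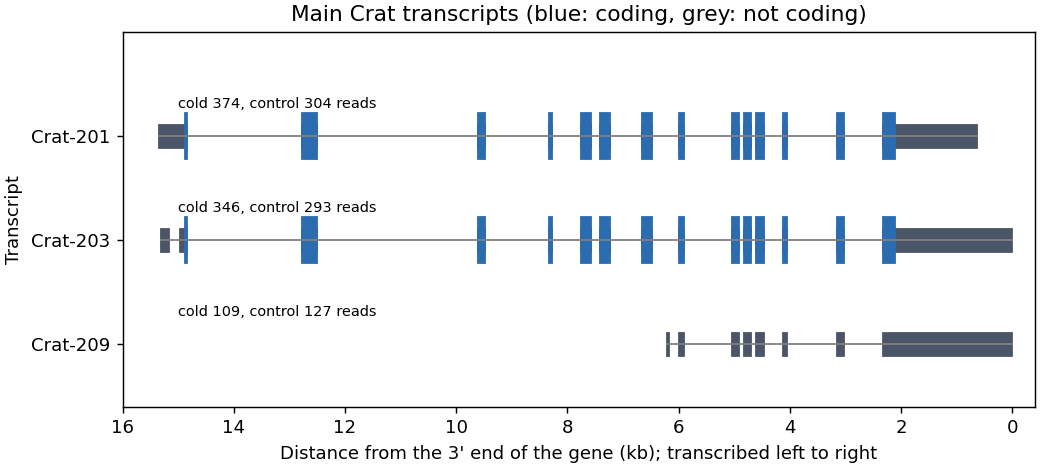
Exon maps of the 3 main Crat transcripts, drawn to scale by distance from the 3′ end of the gene in kilobases and transcribed from left to right. Coding exons are blue and tall, other exons grey, and read counts stand above each map. Crat-201 ends 630 bases before Crat-203, and Crat-209 holds only the last 7 exons of Crat-203 after its own 37-base exon.

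Levels of different genes were compared per kilobase, with each read divided by the length of its transcript. Slc25a20 was highest, at 316 RPM per kilobase (294 to 340) in the cold library and 276 (257 to 296) in the control library. Cpt2 followed with 189 (173 to 205) in the cold library and 168 (154 to 182) in the control library. Crat had 171 (159 to 183) in the cold and 123 (114 to 132) in the control library, and Cpt1b had 158 (145 to 171) in the cold and 101 (91.9 to 111) in the control library. Slc22a5, at 19.7 (15.6 to 24.6) in the cold and 7.98 (5.68 to 10.9) in the control library, and Cpt1a, at 10.3 (7.83 to 13.4) in the cold and 1.89 (1.00 to 3.23) in the control library, were far below. Per kilobase, the order of the 6 levels was the same in both libraries. In the cold library the neighbours Cpt2 and Crat, and Crat and Cpt1b, had overlapping intervals per kilobase. In the control library no neighbours overlapped on that scale. A direct RNA read stands for a molecule whatever its length, and the order depended on the division. In RPM, the cold library ran Crat, Slc25a20, Cpt1b and Cpt2 from the highest down, with overlapping intervals within the first and the last pair. The control library ran Slc25a20, Crat, Cpt2 and Cpt1b, with an overlap between Slc25a20 and Crat. Slc22a5 and Cpt1a came last on both scales. With the reads of Gm44502 added, Cpt1b stood at 580 RPM in the cold library, above Slc25a20 at 564 but within its interval (524 to 607). In the control library Cpt1b then stood at 381 RPM, above Cpt2 at 375 but within its interval (345 to 406).

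As shares of the 6 genes' reads, the matrix-side pair was smaller in the cold library. Slc25a20 took 26.0% (24.4 to 27.7) in the cold and 29.9% (28.2 to 31.7) in the control library, a difference of -3.96 points (-6.35 to -1.57). Cpt2 took 19.5% (18.0 to 20.99) in the cold and 22.8% (21.2 to 24.5) in the control library, a difference of -3.37 points (-5.55 to -1.20). The outer membrane forms and the importer took more. Cpt1b differed by 2.70 points (0.628 to 4.77), Cpt1a by 1.53 (0.954 to 2.16) and Slc22a5 by 1.29 (0.519 to 2.07). The share of Crat, 29.7% (28.0 to 31.5) in the cold and 27.9% (26.2 to 29.7) in the control library, had a difference whose interval covered 0 (-0.609 to 4.21 points).

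**Figure D3:**
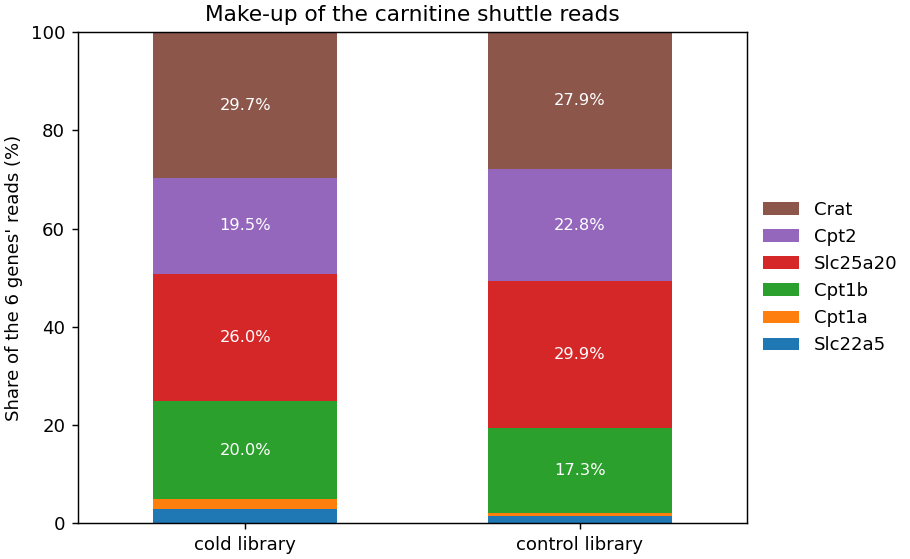
Stacked bars of each gene's share, in percent, of the reads of all 6 genes in the cold library (left) and the control library (right). Slc25a20 and Cpt2 form a smaller part of the cold bar, at 26.0% and 19.5% in the cold library against 29.9% and 22.8% in the control library, and Cpt1b a larger one, at 20.0% in the cold against 17.3% in the control library.

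The scaling of the libraries moved all ratios together. With total counts the median log2 ratio of all tested genes was 0.17, and the log2 ratio of Cpt2 was then 0.35, of Slc25a20 0.38 and of Crat 0.67. Every member stayed above a log2 ratio of 0 under the 4 scalings tried. Relative to the median gene, Slc25a20 and Cpt2 were close to 0.2 log2 units higher.

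**Figure D4:**
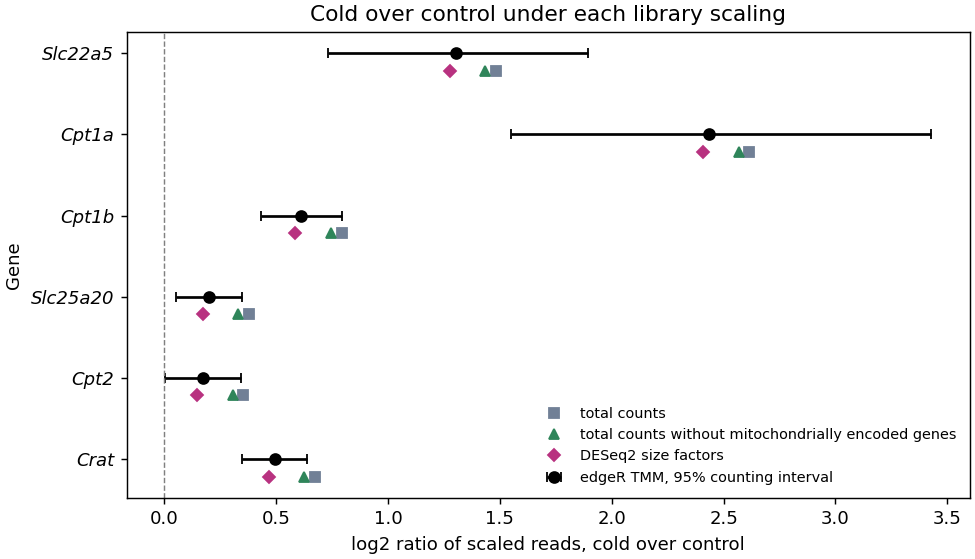
The log2 ratio of scaled reads, cold over control, for each gene. Black points with bars give the TMM scaling and its 95% counting interval, and coloured marks give the other 3 scalings, without intervals. All marks lie right of 0, and Cpt2 and Slc25a20 lie nearest to it.

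Other genes of the route were compared by lists. Of 8 genes for making carnitine or carrying it, only Aldh9a1, a dehydrogenase of carnitine synthesis, had 20 or more summed reads. It had 105 in the cold and 134 in the control library, a ratio of 0.966 (0.741 to 1.26), which turned above 1 with both total-count scalings. Tmlhe and Bbox1, the hydroxylases that open and close carnitine synthesis, had 0 reads in either library, and a count of 0 allows an expected count of up to 3 reads. Crot, the peroxisomal carnitine octanoyltransferase, had 50 reads in the cold and 55 in the control library, a ratio of 1.12 (0.749 to 1.67). Cpt1c, a neuronal relative of Cpt1a, had 1 read in the cold library and 0 in the control library.

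The genes that set malonyl-CoA differed in opposite directions. Mlycd, malonyl-CoA decarboxylase, which removes the inhibitor, had 346 reads in the cold and 223 in the control library and was 1.91-fold higher (1.61 to 2.27). Acacb, the acetyl-CoA carboxylase at the mitochondrial surface, had 627 reads in the cold and 961 in the control library and was 1.24-fold lower (1.12 to 1.38). Acaca, the cytosolic carboxylase, had 491 reads in the cold and 2297 in the control library and was 3.79-fold lower (3.44 to 4.19). Mid1ip1, which promotes polymerisation of the carboxylases, was 1.66-fold lower (1.22 to 2.29). So 1 of the 4 had an interval above 1 and 3 below it, or 2 below it with total counts, where that of Acacb covered 1.

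The steps on either side of the shuttle held genes that differed in both directions. Among long-chain acyl-CoA synthetases, which make its substrate, Acsl5 was 1.63-fold higher (1.47 to 1.82) and the most abundant, Acsl1, 1.09-fold higher (1.03 to 1.16), while Acsl3 was 2.27-fold lower (1.34 to 3.99). Acsl4 had a ratio of 1.16 (0.532 to 2.50). The 15 matrix enzymes of beta-oxidation had a median log2 ratio of 0.03. Their intervals lay above 1 for 2 genes and below it for 4, with 7 above and 4 below under total counts and 1 above and 7 below with DESeq2 size factors. Acadl, the long-chain dehydrogenase, was 1.16-fold higher (1.09 to 1.23) and Decr1, a reductase for unsaturated chains, 1.12-fold higher (1.01 to 1.24). Hadhb, a trifunctional protein subunit and the most abundant of the list, had a ratio of 1.05 (0.999 to 1.11). Eci1, an enoyl-CoA isomerase, was 1.48-fold lower (1.32 to 1.67) and Acaa2, the matrix thiolase, 1.44-fold lower (1.35 to 1.53). Within each library, the 6 shuttle genes took 14.1% (13.6 to 14.6) of the joint reads of shuttle and matrix genes in the cold library and 10.5% (10.1 to 10.9) in the control library. That difference of 3.55 points (2.94 to 4.17) does not depend on the scaling, and its choice followed the values.

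**Figure D5:**
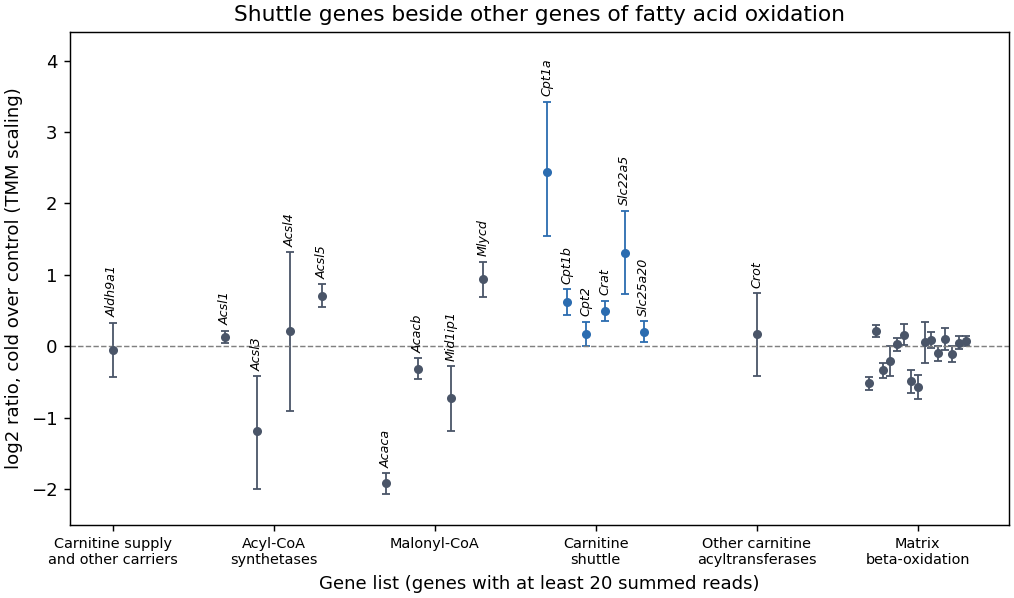
The log2 ratio, cold over control, with 95% counting intervals, for genes with at least 20 summed reads on each list, the shuttle in blue. The 6 shuttle genes lie above 0, the malonyl-CoA genes lie on both sides of it, and the 15 matrix genes cluster around it, unlabelled.

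Among these lists, the gene nearest to Slc25a20 in log2 scaled level over both libraries was Decr1, at a distance of 0.05, followed by Etfdh, which passes electrons from fatty acid oxidation to ubiquinone, at 0.22. Etfdh was nearest to Cpt2 (0.37), Decr1 to Crat (0.24) and Acsl5 to Cpt1b (0.59). Cpt1a and Slc22a5 had no close match, with Acsl4 at 1.90 and Crot at 0.80. A likeness over 2 libraries describes the levels only.

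The tissue label was checked against markers. All 8 brown adipocyte markers had reads in both libraries, and the list summed to 1.87% of reads in the cold and 1.42% in the control library. Of the 8, 5 had an interval above 1, 1 below it and 2 covered it. Ucp1, the uncoupling protein that makes heat, had 14526 reads in the cold and 14860 in the control library, a ratio of 1.21 (1.18 to 1.23) after scaling, and Cidea 1.31 (1.25 to 1.38). Ppargc1a, a coactivator of mitochondrial genes, had the highest ratio at 6.03 (3.96 to 9.49), followed by Dio2, the thyroid hormone deiodinase, at 5.94 (4.47 to 7.997). Cox8b was 1.39-fold lower (1.32 to 1.46), and Prdm16 had a ratio of 0.725 (0.396 to 1.30).

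Markers of other cells had reads as well. The 12 endothelial markers summed to 0.0701% in the cold and 0.0481% in the control library, with 3 of 11 measured intervals above 1. Among them Eng had a ratio of 1.56 (1.25 to 1.96), Gpihbp1 1.55 (1.23 to 1.97), Emcn 0.632 (0.355 to 1.09) and Tek 0.740 (0.285 to 1.80). The 9 macrophage markers summed to 0.0112% in the cold and 0.00713% in the control library, with 2 of 4 above 1 and Adgre1 at 0 in the cold library. C1qa had a ratio of 1.91 (1.06 to 3.54), Lyz2 1.79 (1.11 to 2.93), C1qb 1.60 (0.809 to 3.20) and C1qc 0.763 (0.351 to 1.60). The 5 white adipocyte markers summed to 0.0322% in the cold and 0.0116% in the control library, with Hoxc9 at 0 in both. Npr3 was 3.73-fold higher (2.91 to 4.81) and Retn 2.08-fold higher (1.53 to 2.84), while Lep was 5.84-fold lower (2.28 to 19.1). The part of these cells in the shuttle values was not tested.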

How the data were processed

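The cold and control libraries held 1215617 and 1698124 reads. The deposited files hold read counts of transcripts as whole numbers, which the authors did not normalize, and list only transcripts with at least 1 read. The submitters' processing notes name minimap2 and GRCm38. Versions, the annotation release and the handling of reads that match several transcripts are not stated in the sources used here. Per the labels' protocols, each library used 500 ng of polyadenylated RNA and a direct RNA kit, and the extraction text names another fat depot than the tissue field.

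Transcripts were matched without version to GENCODE M21 (GRCm38), and reads were summed to genes. The 99 unmatched transcripts (1763 reads) stayed in the library size without a name. Effective sizes were 1293824 and 1595479 reads (cold, control) with edgeR 4.0.16 TMM factors. Ratios carry Clopper-Pearson intervals of the cold share, shares have Clopper-Pearson and differences Newcombe intervals, levels exact Poisson intervals, all at 95% and for counting error only. Log2 ratios used a prior of 0.5 reads. A gene not listed was read against a floor of 3 reads. DESeq2 1.42.0 gave alternative size factors. The members and lists were chosen with earlier results of these data known. Named genes were all members, and from each other list the 2 most abundant and up to 2 with the highest and lowest ratios among those with 20 summed reads. Tmlhe, Bbox1, Slc22a4, Cpt1c, Mid1ip1 and Gm44502, Chkb, Dolpp1 and Gm16323 were named for their role or position.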

Additional observations from a re-analysis of the deposited data

How the results depend on the processing

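With 1 library per group, the depth of 1215617 and 1698124 reads in the cold and control libraries limits only counting error, which is wide for Cpt1a and Slc22a5, and no value here speaks to variation between animals. No paired analysis was possible because each group had 1 library and the labels number no replicates. Of 94 alternative values, 72 stayed within the counting interval or within 1.5 times a count. No log2 ratio of a member or of the summed members changed sign. Counts and shares have no sign, so they could not reverse. Some of the 94 values could not move. Slc25a20 and Slc22a5 each had reads on 1 transcript, so keeping only the main or the protein_coding transcripts left their ratios unchanged. With total counts the log2 ratio was 0.35 for Cpt2, 0.38 for Slc25a20, 0.67 for Crat and 0.58 for the 6 genes summed (0.40 with TMM), and total counts without mitochondrially encoded genes gave 0.54 for the sum. By construction, these scalings move all genes alike, with the median gene at 0.17 and 0.13. Genes of the whole table at least 2-fold higher and lower numbered 316 and 307, against 522 and 189 with total counts and 93 and 63 with at least 100 summed reads, where fewer genes are tested. The number of members with an interval above 1 was 6, or 5 with DESeq2 size factors, where Cpt2 covered 1. Dividing reads by transcript length gave shares of the 6 genes in the cold library of 1.20% for Cpt1a, 18.3% for Cpt1b, 21.8% for Cpt2, 36.6% for Slc25a20 and 19.8% for Crat. In the control library they were 14.9% for Cpt1b, 24.8% for Cpt2, 40.7% for Slc25a20 and 18.2% for Crat. With protein_coding transcripts only, Crat took 26.9% in the cold and 24.2% in the control library, since Crat-209 is then left out.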
